A study of Mus musculus with 6 samples.

Results

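The genes of the fibril-forming collagens of types I, III, V and XI were examined in poly-A RNA of wild-type C57BL/6 mouse kidneys. The kidneys had lost and regained their blood supply (ischaemia and reperfusion) 28 days earlier. The family comprises 7 of the 35275 genes counted: Col1a1, Col1a2, Col3a1, Col5a1, Col5a2, Col5a3 and Col11a1, found by gene symbol. Severe injury was 35 min of ischaemia (3 libraries, numbered 13, 14 and 15) and mild injury was 20 min (3 libraries, numbered 7, 8 and 9). Both groups were injured, so each comparison sets longer against shorter ischaemia; uninjured kidneys were not analysed here. Age, sex and whether each library came from a separate mouse are not given in the labels, so p-values measure the spread between these samples, which may be technical.

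Fibrillar collagens are the proteins that give connective tissue its tensile strength, and scarring of the kidney is marked by their build-up between the tubules. Their chains fold into triple helices inside the cell, are secreted with end pieces that block assembly, and form fibrils once those ends are cut off. Types I and III make up the bulk of the fibril, whereas types V and XI sit within it in small amounts and govern where fibrils start and how thick they grow. In kidney they are made mainly by interstitial fibroblasts, pericytes and myofibroblasts.

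All 7 genes stood higher on average in severe than in mild kidneys. Levels of the type I and III chains and of Col5a1 were 3.49 to 4.17 times the mild mean, Col5a2 was 2.47 times, Col5a3 1.61 times and the scarce Col11a1 6.75 times. Col11a1 passed the filter on low counts only through its severe libraries and is left out of the counts set against all genes in this paragraph. Of the other 6 genes, 6 stood higher on average, against 50.1% of the 14883 genes tested, and in 5 every severe library lay above every mild library, against 17.9%; Col5a3 was the exception. Severe libraries also differed widely among themselves. By edgeR's quasi-likelihood test 0 of the 6, and not Col11a1 either, passed an adjusted p of 0.05 (Benjamini-Hochberg over all genes tested), where 0.0134% of all genes did so in either direction and 0.00672% as higher. At an unadjusted p under 0.05 the same edgeR test had all 6 higher, against 15.8% of genes tested.

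Library totals lay between 15240491 and 17730967 gene counts. Severe library 14 stood furthest from the others: the chi-square per degree of freedom between replicates, near 1 for sampling noise alone, was 14.2 to 70.04 for severe pairs, with both larger values in pairs with library 14, and 3.67 to 5.34 for mild pairs. Summed levels of some kidney cell type markers did not overlap between the groups. The summed level of 6 fibroblast and pericyte markers was 212 to 479 CPM in severe and 99.9 to 153 CPM in mild libraries, where CPM is counts scaled to a common library total after TMM, a factor that evens out library composition. The summed level of 4 myofibroblast and smooth muscle markers was 156.5 to 331.5 CPM in severe and 106 to 132 CPM in mild libraries, and that of 7 macrophage markers 499.6 to 945 CPM in severe and 262 to 312 CPM in mild libraries. Proximal tubule markers, 5 in number, summed to 4780 to 8914 CPM in severe and 9777 to 10980 CPM in mild libraries, and 3 injured-tubule markers to 102 to 527 CPM in severe and 60.0 to 92.0 CPM in mild libraries. Distal convoluted tubule markers (2) summed to 456 to 769 CPM in severe and 884 to 996 CPM in mild libraries, and loop of Henle markers (2) to 3647 to 6057 CPM in severe and 6476 to 6667 CPM in mild libraries. Without overlap between the groups, 6 of 6 fibroblast and pericyte, 3 of 4 myofibroblast, 6 of 7 macrophage and 2 of 3 injured-tubule markers were higher in severe kidneys. So was 1 of 5 endothelial markers, where 17.9% of all genes tested were higher in this way. Lower in this way were 5 of 5 proximal tubule, 2 of 2 distal convoluted tubule, 1 of 2 loop of Henle and 2 of 4 podocyte markers, against 16.1% of all genes. The summed levels of endothelial markers (308 to 381 CPM in severe and 302 to 348 CPM in mild libraries), collecting duct markers (246 to 408 CPM in severe and 339.6 to 449 CPM in mild libraries), podocyte, T cell, urothelium and adipocyte markers overlapped, as did those of skeletal muscle markers, which were at most 0.281 CPM. No marker in these lists was at 0 in all libraries. In whole-kidney RNA more cells of a type and more RNA per cell cannot be told apart, and the part of these markers in the collagen values was not tested.

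Type I collagen, the main load-bearing collagen of scar, is assembled from the α1 chain encoded by Col1a1 and the α2 chain encoded by Col1a2. Col1a1 (ENSMUSG00000001506, plus strand of chromosome 11, 94936224 to 94953042 in mm10) measured 265, 859 and 444 CPM in severe libraries 13, 14 and 15, against 128, 132 and 116 CPM in mild libraries 7, 8 and 9. The groups did not overlap, and library 14 was 3.24 times library 13, whereas mild libraries lay within 1.14 times of each other. Its mean was 523 ± 305 CPM in severe and 125 ± 8.28 CPM in mild kidneys (SD, n = 3 each). The log2 fold change of Col1a1 was 2.06 ± 0.38 (SE; edgeR adjusted p = 0.0867).

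Col1a2 (ENSMUSG00000029661, plus strand of chromosome 6, 4504814 to 4541543) followed the same order. Its levels were 287, 928 and 459 CPM in severe libraries 13, 14 and 15, against 163, 156 and 138 CPM in mild libraries 7, 8 and 9, again without overlap. The log2 fold change was 1.87 ± 0.38 (SE; edgeR adjusted p = 0.0867). Relative to the mild mean, severe library 13 held 2.12 times as much Col1a1 and 1.88 times as much Col1a2, and library 14 held 6.86 and 6.09 times as much.

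Type III collagen is built from the single chain encoded by Col3a1 and is laid down with type I in young scar and in pliable tissues. Col3a1 (ENSMUSG00000026043, plus strand of chromosome 1, 45311538 to 45349706) had the highest count of the 7 in every library. Its levels were 389, 1588 and 752 CPM in severe libraries 13, 14 and 15, against 239, 224 and 193 CPM in mild libraries 7, 8 and 9. The severe libraries spanned 4.09-fold, the widest range of the 7 genes, and even the lowest of them lay above the mild range. The log2 fold change was 2.06 ± 0.45 (SE; edgeR adjusted p = 0.0873).

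**Figure D1:**
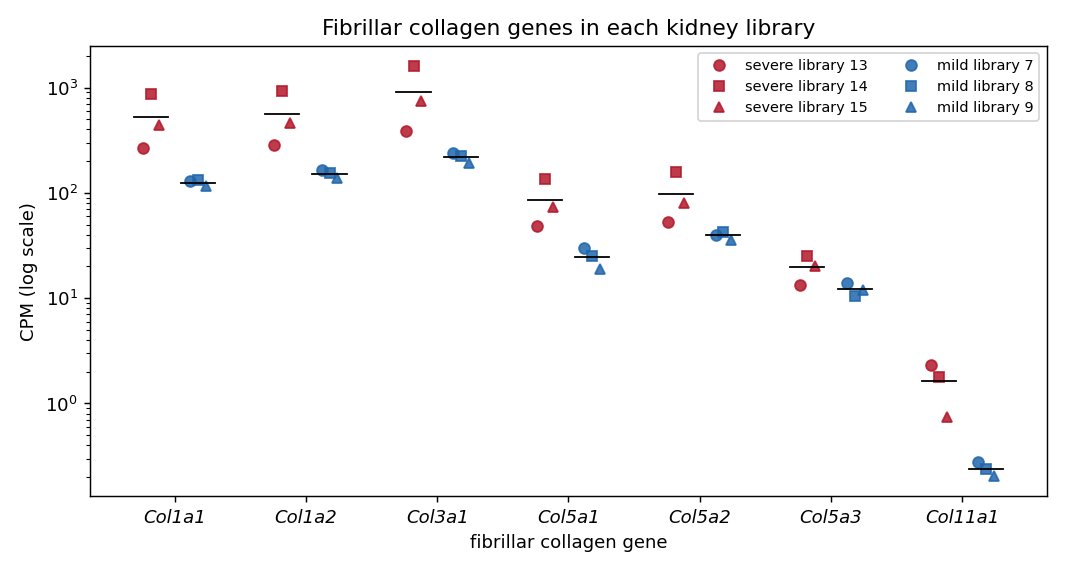
CPM of each fibrillar collagen gene (log scale) in the severe libraries (red) and mild libraries (blue), one symbol per library, with black bars for group means (n = 3 each). Library 14 is the highest severe library for 6 genes; for Col11a1 it is library 13, and for Col5a3 library 13 lies within the mild range.

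Type V collagen chains join type I in mixed fibrils and limit their diameter. The α1 chain of Col5a1 is needed for nearly all forms of type V, the α2 chain of Col5a2 joins it in the commonest form, and the α3 chain of Col5a3 occurs in a form restricted to fewer tissues. Col5a1 (ENSMUSG00000026837, plus strand of chromosome 2, 27886425 to 28039514) had 48.0, 136 and 72.8 CPM in severe libraries 13, 14 and 15, against 29.7, 25.0 and 18.9 CPM in mild libraries 7, 8 and 9. Its groups did not overlap, and its mild libraries spread the most of the 7 genes, 1.57-fold. The log2 fold change was 1.80 ± 0.36 (SE; edgeR adjusted p = 0.0867). Opposite-strand genes, 2 in number, overlap Col5a1 and held at most 12 counts in a library, few beside the 276 or more of Col5a1.

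Col5a2 (ENSMUSG00000026042, minus strand of chromosome 1, 45374321 to 45503282) neighbours Col3a1 on the opposite strand without overlapping it. Its levels were 52.5, 159.5 and 79.8 CPM in severe libraries 13, 14 and 15, against 40.1, 42.7 and 35.5 CPM in mild libraries 7, 8 and 9. Every severe library was again above every mild one, but library 13 was only 1.33 times the mild mean. The log2 fold change of Col5a2 was 1.30 ± 0.36 (SE; edgeR adjusted p = 0.111).

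Col5a3 (ENSMUSG00000004098, minus strand of chromosome 9, 20770050 to 20815067) measured 13.4, 24.95 and 20.3 CPM in severe libraries 13, 14 and 15, against 13.98, 10.5 and 11.9 CPM in mild libraries 7, 8 and 9. Severe library 13 lay within the mild range and the other severe libraries above it. This was the smallest log2 fold change of the 7, at 0.69 ± 0.22 (SE; edgeR adjusted p = 0.140).

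Type XI collagen is best known as the nucleating collagen of cartilage fibrils, and its chains can combine with those of type V in other tissues. Col11a1 (ENSMUSG00000027966, plus strand of chromosome 3, 114030540 to 114220718) was close to the limit of detection in mild kidneys; 3 counts correspond to 0.169 to 0.207 CPM in the 6 libraries. It had 40, 32 and 12 counts in severe libraries 13, 14 and 15, against 4, 4 and 3 counts in mild libraries 7, 8 and 9, which is 2.32, 1.80 and 0.737 CPM in severe and 0.275, 0.239 and 0.206 CPM in mild libraries. All severe libraries were above all mild ones, but in a different order from the other genes: library 13, the lowest severe library for the other 6, was the highest here. The log2 fold change was 2.72 ± 0.53 (SE; edgeR adjusted p = 0.0867). The summed counts, 84 in severe and 11 in mild libraries, gave a depth-scaled ratio of 6.83 with a 95% interval from 3.63 to 14.2 for counting error alone (exact binomial). Col11a1 passed the filter on low counts through its severe libraries, so it could enter the test only by being higher there.

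The sequences upstream of 4 genes are shown because their values fall apart: Col3a1 has the highest level, Col5a1 and Col5a3 are type V chains with unlike differences, and Col11a1 has its own order of libraries. Of the 7 genes, 5 matched the RefSeq promoter table (GRCm38.p6, the mm10 assembly): Col1a2, Col3a1, Col5a1, Col5a3 and Col11a1. Windows are the 250 bases before the annotated start, 5′ to 3′ on the gene's strand: chr1:45311288-45311537 for Col3a1, chr2:27886175-27886424 for Col5a1 and chr3:114030290-114030539 for Col11a1, all on the plus strand, and chr9:20815068-20815317 for Col5a3, on the minus strand. Capitals mark 4 motifs on either strand: the CCAAT box, the GC box with the letters GGGCGG, the TATA box with the letters TATAAA, and a Smad element with the letters CAGACA.
Col3a1: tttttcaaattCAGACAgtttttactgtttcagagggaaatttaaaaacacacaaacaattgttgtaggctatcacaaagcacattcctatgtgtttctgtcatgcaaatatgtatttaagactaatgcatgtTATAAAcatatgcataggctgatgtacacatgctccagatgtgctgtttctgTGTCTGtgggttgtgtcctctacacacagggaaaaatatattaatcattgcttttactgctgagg
Col5a1: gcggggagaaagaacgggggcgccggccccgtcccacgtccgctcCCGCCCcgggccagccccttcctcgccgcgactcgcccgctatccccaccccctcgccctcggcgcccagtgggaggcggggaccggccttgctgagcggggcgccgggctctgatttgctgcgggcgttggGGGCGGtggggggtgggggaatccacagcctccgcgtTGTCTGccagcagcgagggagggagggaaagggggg
Col5a3: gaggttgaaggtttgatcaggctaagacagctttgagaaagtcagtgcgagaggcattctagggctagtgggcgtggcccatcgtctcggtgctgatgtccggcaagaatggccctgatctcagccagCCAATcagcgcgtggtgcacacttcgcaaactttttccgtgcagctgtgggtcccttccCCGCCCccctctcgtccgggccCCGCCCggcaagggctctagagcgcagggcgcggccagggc
Col11a1: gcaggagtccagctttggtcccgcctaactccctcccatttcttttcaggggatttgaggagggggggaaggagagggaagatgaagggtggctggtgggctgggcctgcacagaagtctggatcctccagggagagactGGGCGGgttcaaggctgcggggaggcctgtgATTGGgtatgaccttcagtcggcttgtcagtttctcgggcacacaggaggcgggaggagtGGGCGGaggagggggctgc
The Col3a1 sequence is 35.2% G and C, with 1 TATA box and 2 Smad elements and neither a CCAAT box nor a GC box. Those of Col5a1, Col5a3 and Col11a1 are 76.4%, 62.8% and 62.4% G and C, and each holds 2 GC boxes and 0 TATA boxes. The CCAAT box occurs once in Col5a3 and once in Col11a1, and the Smad element once in Col5a1. Of all 32851 promoter windows of this length, 33.9% hold a CCAAT box, 32.7% a GC box, 12.4% a TATA box and 17.1% a Smad element, and matches of different motifs did not overlap in these genes. A match only describes these letters.

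Single severe libraries decided the calls. Without severe library 13, the least different from mild kidneys for 6 of the genes, all 7 passed (edgeR adjusted p from 0.00358 to 0.0217), against 13.8% of genes called higher in that fit. Without library 14 only Col11a1 passed (edgeR adjusted p = 0.0370, from 0.00325 to 0.319 over its alternatives; background 2.40%), and the log2 fold changes of Col1a1, Col3a1 and Col5a2 were 1.50, 1.38 and 0.74. Without library 15 edgeR called 0 of 7 (background 0.00664%), with all 7 at an unadjusted p under 0.05, against 12.8% of genes. Without any 1 mild library edgeR called 0 of 7 and 0% of all genes. At an unadjusted p under 0.05 it then had 7 of 7 higher without mild library 7 (background 11.5%), 6 without library 8 (11.0%, Col5a3 missing) and 7 without library 9 (12.3%). DESeq2 on all 6 libraries called 6 of the 7 higher, all but Col5a3 (background 6.28%). Limma-voom called 0 (background 0.00672%), with all 7 at an unadjusted p under 0.05, against 14.4% of genes, and limma-voom with sample quality weights called 7 (background 18.4%). With no filter on low counts edgeR called Col11a1 alone (background 0.591%). Col11a1 is among the genes counted here, although in the fits with a filter on low counts its low mild counts let it be tested only where severe libraries are high. Leaving it out, all 6 other genes lay above every mild library without severe library 13, against 28.7% of genes tested, and 5 did so without library 14 (20.2%) or library 15 (21.1%). The SD of log2 CPM was larger in severe than in mild kidneys for all 7 genes, as for 73.0% of genes tested.

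**Figure D2:**
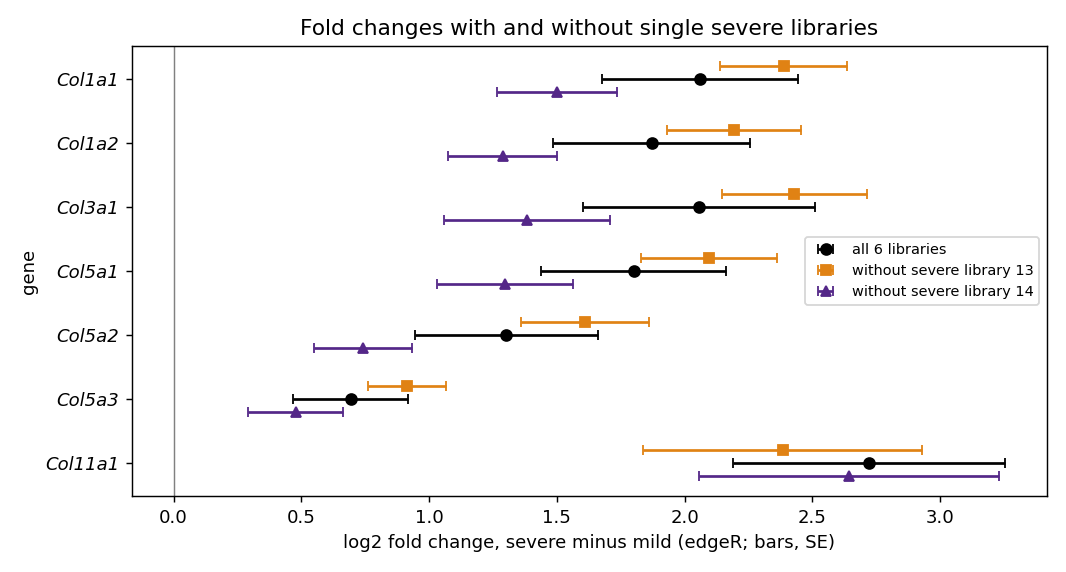
Log2 fold change of severe over mild kidneys for each gene with its SE (edgeR), from all 6 libraries (black), without severe library 13 (orange) and without severe library 14 (purple). For 6 genes the value is lower without library 14 and higher without library 13; Col11a1 is below its value of 2.72 in both, at 2.38 without library 13.

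By the deposited gene lengths, the order of levels per length was the same in all 6 libraries: Col3a1, Col1a2, Col1a1, Col5a2, Col5a1, Col5a3 and Col11a1. This order depends on the length used. By total exon length (GENCODE M21), Col1a1 stood above Col1a2 in all 6 libraries and above Col3a1 in severe library 13, at 40.4 against 39.6 CPM per kilobase, and Col5a1 stood above Col5a2 in severe libraries 13 and 15. In CPM per kilobase of the deposited gene length, Col3a1 averaged 163.5 ± 110.5 in severe and 39.3 ± 4.24 in mild kidneys, and Col11a1 0.211 ± 0.105 in severe and 0.0313 ± 0.00455 in mild kidneys (SD, n = 3 each). Between libraries, the ranges of neighbours in this order overlapped in the severe group for Col3a1 and Col1a2, Col1a2 and Col1a1, and Col5a2 and Col5a1. In the mild group they overlapped for Col5a1 and Col5a3. Within each single library the order by deposited length held for these pairs too.

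Together the 7 genes took 0.103%, 0.432% and 0.191% of all gene counts in severe libraries 13, 14 and 15, and 0.0581%, 0.0556% and 0.0485% in mild libraries 7, 8 and 9. Exact binomial 95% intervals were at most as wide as 0.428% to 0.435%, in library 14, so counting error is small beside the spread between libraries. Transcripts of this family were thus 0.242% ± 0.170 of counts in severe and 0.0541% ± 0.00497 in mild kidneys (SD, n = 3 each), with a severe mean of 0.147% without library 14.

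Within the family, transcripts of the type V chains held a smaller share in every severe library than in any mild one. After scaling counts by gene length, type V chains made up 8.59%, 6.84% and 7.51% of the 7 genes in severe libraries 13, 14 and 15, against 11.1%, 10.8% and 10.7% in mild libraries 7, 8 and 9, without overlap. Type I chains made up 49.1% to 53.4% in severe and 48.7% to 50.7% in mild libraries, and type III 37.9% to 44.01% in severe and 38.7% to 40.2% in mild libraries, both overlapping. Among the type V chains, Col5a2 was at 3.93% ± 0.322 in severe and 5.97% ± 0.307 in mild kidneys, and Col5a3 at 0.952% ± 0.290 in severe and 1.99% ± 0.274 in mild kidneys (SD, n = 3 each). Both were without overlap, whereas Col5a1 overlapped, at 2.77% ± 0.308 in severe and 2.90% ± 0.397 in mild kidneys.

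**Figure D3:**
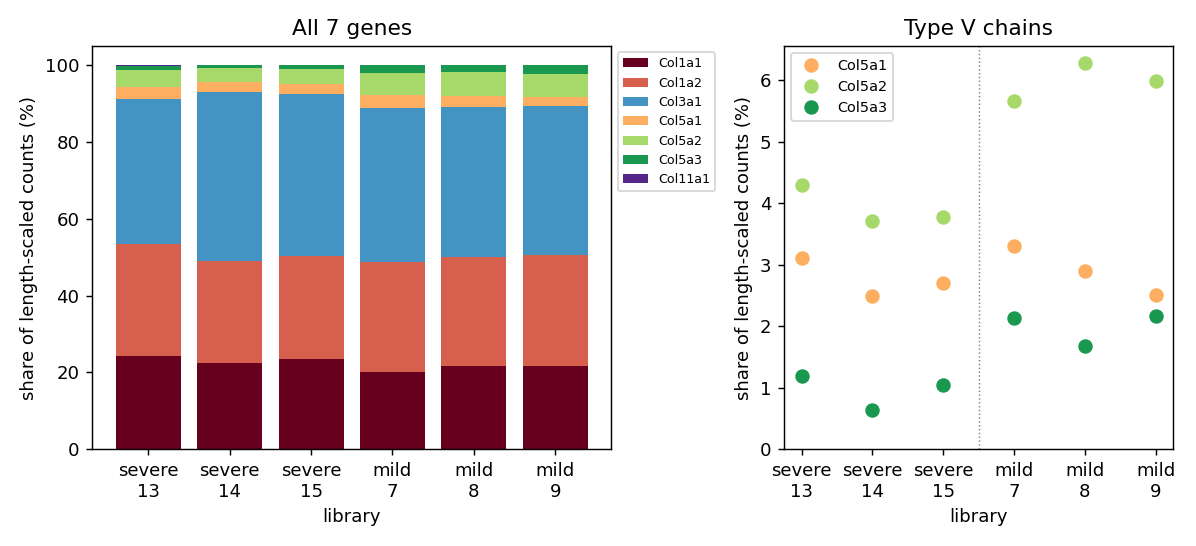
Left, share of each of the 7 genes in their summed length-scaled counts (%) for each severe and mild library; right, the same for the type V chains on a wider scale. Col5a2 and Col5a3 sit lower in all 3 severe libraries than in all mild ones, while the Col5a1 points overlap.

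Ratios between genes of the same library do not depend on the scaling of libraries, and 6 of them were compared by exact two-sided permutation over the 20 assignments of 3 against 3 libraries, for which 0.1 is the smallest possible p. The log2 ratio of Col5a3 to Col5a1 was -1.84, -2.44 and -1.84 in severe libraries 13, 14 and 15, against -1.09, -1.25 and -0.67 in mild libraries 7, 8 and 9, a difference of -1.04 (exact p = 0.1, adjusted over the 6 ratios 0.2). That of Col5a2 to Col5a1 was 0.13, 0.23 and 0.13 in severe and 0.43, 0.77 and 0.91 in mild libraries, a difference of -0.54 (exact p = 0.1, adjusted 0.2). Transcripts of Col5a2 and Col5a3 were therefore lower relative to those of Col5a1 in all 3 severe libraries than in any mild one. Both genes were still higher on average in severe kidneys.

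The ratio of the type I chains, Col1a1 to Col1a2, also separated the groups, with log2 values of -0.12, -0.11 and -0.05 in severe against -0.35, -0.25 and -0.26 in mild libraries, a difference of 0.19 (exact p = 0.1, adjusted 0.2). The remaining 3 ratios overlapped. Col3a1 to Col1a1 differed by -0.07 (exact p = 0.6), Col5a1 to Col1a1 by -0.205 (exact p = 0.3) and Col11a1 to Col5a1 by 0.76 (exact p = 0.3). The last was -4.35 in severe library 13 and -6.22 and -6.57 in severe libraries 14 and 15, beside -6.59 to -6.30 in mild libraries, and its difference was 0.08 without library 13. With a prior count of 2 in place of 0.5 that difference was 0.41 (exact p = 0.9).

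**Figure D4:**
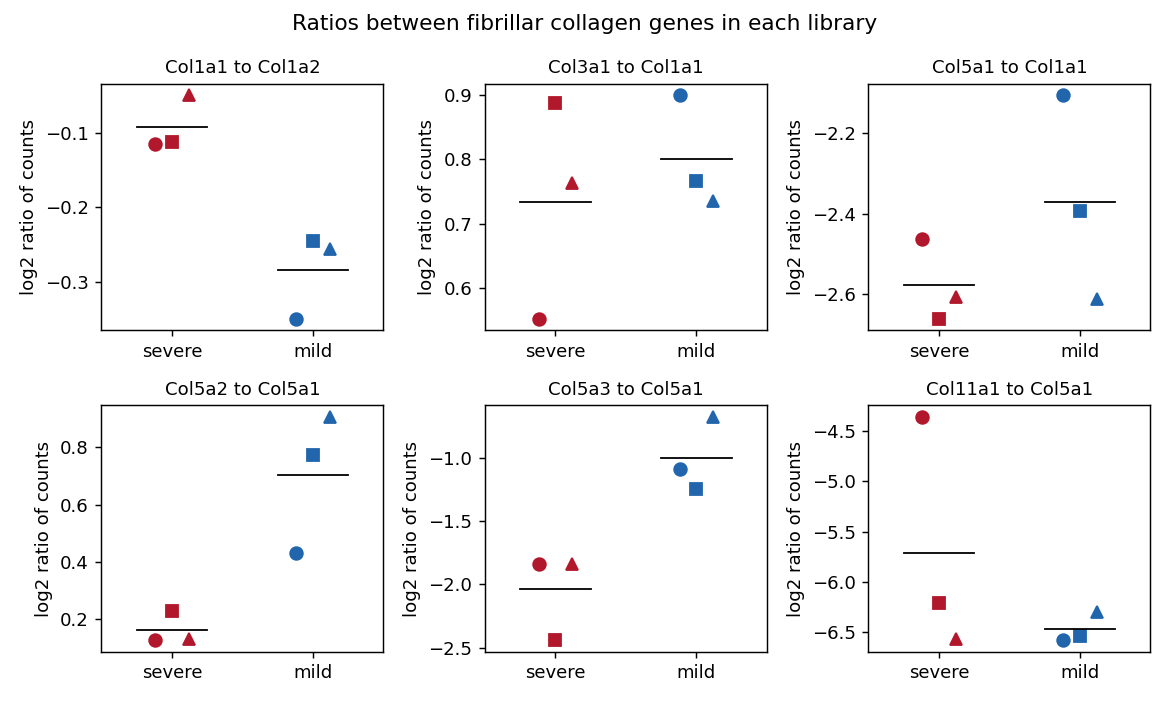
Log2 ratio of counts between pairs of fibrillar collagen genes in each severe library (red) and mild library (blue), with bars for group means (n = 3 each). The pairs Col1a1 to Col1a2, Col5a2 to Col5a1 and Col5a3 to Col5a1 do not overlap between groups, and severe library 13 stands apart for Col11a1 to Col5a1.

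Profiles over the 6 libraries put the genes into a tight core and outliers. As a description, the root mean square distance between profiles of log2 CPM, each centred on its mild mean, was 0.12 to 0.22 among Col1a1, Col1a2, Col3a1 and Col5a1. Col5a2 lay 0.40 to 0.53 from these 4, Col11a1 0.74 to 0.84 and Col5a3 0.78 to 0.93. The genes outside the family closest to the mean profile of Col1a1, Col1a2 and Col3a1 were Cdh11, a cadherin of mesenchymal cells, at 0.0876, the gelatinase Mmp2 at 0.0952, the microfibril protein Fbn1 at 0.0992, the microfibril-associated Mfap4 at 0.110 and the fibroblast receptor Pdgfra at 0.110. Cdh11 measured 39.5, 125 and 69.3 CPM in severe libraries 13, 14 and 15, against 23.6, 21.7 and 18.5 CPM in mild libraries 7, 8 and 9, in the same order of severe libraries as Col1a2. Of all genes tested 11.9% had this order with every severe library above every mild one. Ranked by distance from that mean profile among the 14883 genes tested, Col5a1 was 21, Col5a2 244, Col11a1 935 and Col5a3 1272. Genes outside the family, Cdh11 among them, thus lay nearer to it than Col5a1.

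The other genes of collagen handling were read from lists, and by edgeR 0 of their 80 tested members passed an adjusted p of 0.05. Of all genes tested 0.0134% did so. The counts at an unadjusted p under 0.05 follow for each list. Over all genes tested 15.8% were higher and 7.89% lower at that p. Of the remaining fibril-forming collagens, 0 of 3 tested were higher and 1 was lower at an unadjusted p under 0.05, with a median log2 fold change of -0.37 beside 0.00 over all genes tested. That median was -0.07 without mild library 8, -0.22 without severe library 13, -0.24 without severe library 14 and -0.19 with library totals as the scaling. Col27a1, which encodes a long collagen of thin fibrils, had 100.3, 74.8 and 120 CPM in severe libraries 13, 14 and 15, against 124, 133 and 133 CPM in mild libraries 7, 8 and 9, lower in every severe library (log2 fold change -0.41 ± 0.16, SE; edgeR adjusted p = 0.185). Lower without overlap between the groups were 16.1% of all genes tested. Log2 fold changes were 0.48 ± 0.32 for Col24a1 and -0.37 ± 0.32 for Col11a2 (SE), both with overlapping groups, and the cartilage collagen Col2a1 was too low to test, at 0 to 0.0560 CPM in severe and 0.0690 to 0.206 CPM in mild libraries.

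Enzymes and chaperones that prepare the chains inside the cell were divided. Of 17 tested, 8 were higher and 1 lower at an unadjusted p under 0.05, where 15.8% and 7.89% of all genes were, and the list median of the log2 fold change was 0.09 (0.20 without mild library 8). The smallest p was that of Leprel2, of the prolyl 3-hydroxylase family, at 24.9 ± 5.82 in severe and 11.0 ± 0.723 CPM in mild kidneys (SD, n = 3 each); its log2 fold change was 1.18 ± 0.18 (SE). The procollagen chaperone Fkbp10 stood at 1.46 ± 0.31, the prolyl 3-hydroxylase Lepre1 at 0.56 ± 0.13 and Colgalt1, which adds galactose to hydroxylysine, at 0.55 ± 0.13 (log2 fold change ± SE).

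Genes that serve the removal of the end pieces had 5 of 9 tested higher and 0 lower at an unadjusted p under 0.05. Over all genes tested 15.8% were higher and 7.89% lower. The 5 higher were 4 of 7 proteases and 1 of 2 enhancers of the C-propeptidase. The enhancer was Pcolce, named after its value was seen, at a log2 fold change of 0.20 ± 0.08 (SE). The median of the list was 0.36, with 0.69 without mild library 7, 0.61 without severe library 13 and 0.20 without severe library 14. Adamts2, the main N-propeptidase, measured 17.9, 67.4 and 32.7 CPM in severe libraries 13, 14 and 15, against 12.5, 9.51 and 9.26 CPM in mild libraries 7, 8 and 9. Bmp1, the C-propeptidase, had a log2 fold change of 1.58 ± 0.37, and the N-propeptidases Adamts14 and Adamts3 had 1.20 ± 0.30 and 1.07 ± 0.34 (SE). Adamts3, 1 of the 4 higher proteases, passed the filter on low counts only with its severe libraries. Mep1a and Mep1b, proteases of this list named after their values were seen, lay lower in every severe library than in any mild one. Their means were 1302 and 135 CPM in severe and 1743 and 206 CPM in mild kidneys (edgeR unadjusted p = 0.121 and 0.0687). Lower without overlap between the groups were 16.1% of all genes tested. Of 6 cross-linking enzymes 5 were higher at an unadjusted p under 0.05, with a median of 1.42. Lox, the lysyl oxidase that starts the covalent bonds between collagen molecules, measured 22.5, 80.3 and 32.1 CPM in severe libraries, against 8.26, 6.46 and 7.06 CPM in mild libraries; Loxl3 and Loxl2 had log2 fold changes of 1.45 ± 0.32 and 1.60 ± 0.36, and Loxl1 1.40 ± 0.25.

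Of 12 proteins that bind fibrils or guide their assembly, 11 were higher at an unadjusted p under 0.05 (median 1.39), with the smallest p for the small proteoglycans Ogn (log2 fold change 0.998 ± 0.17) and Bgn (1.52 ± 0.27), fibronectin (Fn1, 2.10 ± 0.39) and Col14a1 (1.25 ± 0.24), a collagen on the fibril surface. Dcn, Lum and Dpt of this list are also fibroblast markers. Among 9 collagen receptors 6 were higher at an unadjusted p under 0.05, where 15.8% of all genes were. The receptor median of 0.41 was 0.26 without severe library 14, again over 9 genes. It was 1.02 without severe library 13 and 0.80 to 0.88 without any 1 mild library. In those fits 10 receptors passed the filter on low counts, so these medians cover a different set of genes. The 6 higher receptors included the uptake receptor Mrc2 at 109 ± 40.2 in severe and 38.8 ± 5.70 CPM in mild kidneys (SD, n = 3 each). The fibroblast integrin subunit Itga11 had 1.10, 2.92 and 2.15 CPM in severe against 0.620, 0.359 and 0.343 CPM in mild libraries. Itga11, counted among the 6, passed the filter on low counts only through its severe libraries, so it could be tested only by being higher there. The leukocyte receptor Lair1 (log2 fold change 1.32 ± 0.31) and the collagen-activated kinase Ddr2 (1.58 ± 0.40) were also among the 6.

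In the degradation list 7 of 9 genes were higher and 0 lower at an unadjusted p under 0.05 (median 1.66), with Mmp2 at a log2 fold change of 2.004 ± 0.37, the gelatinase Mmp9 at 1.64 ± 0.34, the membrane protease Mmp14 at 1.81 ± 0.38 and the protease inhibitor Timp1 at 2.17 ± 0.47 (SE). The list holds proteases and inhibitors. Also among the 7 were the inhibitor Timp2 and the protease Fap, named after their values were seen. Fap passed the filter on low counts only through its severe libraries, so it could be tested only by being higher there. Timp3, an inhibitor gene of this list named after its value was seen, lay lower in every severe library than in any mild one. It measured 1311, 790 and 1065 CPM in severe libraries 13, 14 and 15, against 1388, 1612 and 1382.5 CPM in mild libraries. Its log2 fold change was -0.47 ± 0.21 (SE; edgeR unadjusted p = 0.0576). Lower without overlap between the groups were 16.1% of all genes tested. Over all genes tested 15.8% were higher and 7.89% lower at an unadjusted p under 0.05. Inducers and transcription factors had 9 of 15 higher and 0 lower at that p (median 0.95, and 0.55 without severe library 14). Among them were Tgfb3 at 1.45 ± 0.25, Tgfb1 at 0.95 ± 0.21, the matricellular factor Ctgf at 1.39 ± 0.34 and the mesenchymal homeobox factor Prrx1 at 1.65 ± 0.46 (log2 fold change ± SE; edgeR adjusted p from 0.0867 to 0.112). Twist1, another of the 9 and named after its value was seen, passed the filter on low counts only with its severe libraries. The calls in these lists moved with the libraries used. Without severe library 13 edgeR called as higher 8 hydroxylation and folding, 3 propeptide, 4 cross-linking, 10 fibril-binding, 5 receptor, 7 degradation and 9 inducer genes, and as lower 1 folding and 1 degradation gene, where 13.8% of all genes were called higher and 7.74% lower. Without severe library 14 it called as higher 3 hydroxylation and folding, 0 propeptide, 2 cross-linking, 5 fibril-binding, 1 receptor, 2 degradation and 2 inducer genes and 0 as lower, where 2.40% of all genes were called higher and 0.931% lower.

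**Figure D5:**
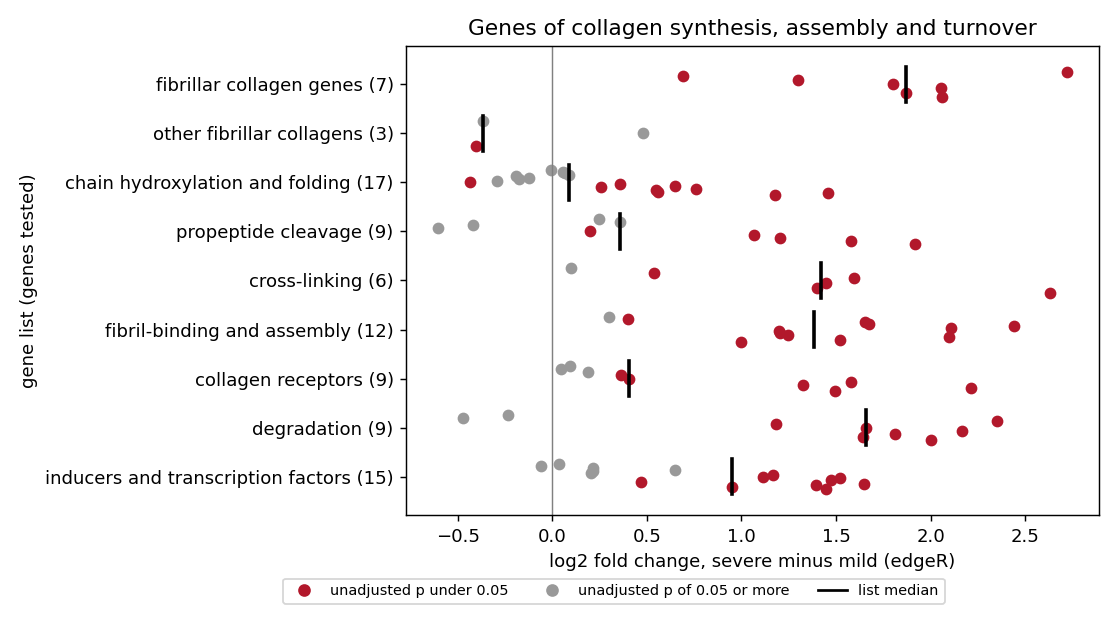
Log2 fold change of severe over mild kidneys (edgeR) for each tested gene of the fibrillar collagen family and of 8 lists of collagen handling, red where the unadjusted p is under 0.05, with black bars for list medians. Cross-linking, fibril-binding and degradation genes lie mostly above 1, while the chain hydroxylation and folding list and the other fibrillar collagens centre near or below 0. The degradation list holds proteases and their inhibitors. Col11a1, Itga11, Fap, Adamts3 and Twist1 passed the filter on low counts only with their severe libraries.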

How the data were processed

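The deposited table holds raw read counts per Ensembl gene, one column per library. Per the submitters' processing notes, Bowtie2 2.2.3, TopHat2 2.0.12, HTSeq 0.6.1 and mm10 were used; which step each served, strandedness and annotation version were not given in the sources used here. Libraries were poly-T selected and randomly primed, per the labels' protocols. Column names gave the group and no pairing. The deposited gene length, listed by the authors, equalled the longest GENCODE M21 transcript to within 1 base for the 7 genes.

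Counts were filtered with filterByExpr, scaled by TMM and tested with edgeR 4.0.16 (quasi-likelihood, robust; R 4.3.3), with DESeq2 1.42.0 and limma 3.58.1 as alternatives. Ratios carried a prior count of 0.5. The pipeline was tested on simulated data. The simulation gave both groups the same spread and held no library that stood apart, unlike these data. Genes named are the 7 collagen genes, up to 4 per list by p-value, lists of 5 or fewer in full and the 5 nearest profiles; Col27a1, Col24a1, Col11a2 and Col2a1 form such a list. The 7 genes and the lists were chosen with earlier results of these data known. Intervals cover counting error only.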

Additional observations from a re-analysis of the deposited data

How the results depend on the processing

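All 7 genes kept a log2 fold change above 0 under every alternative that tested them; a filter of 1 CPM in 3 libraries left out Col11a1. DESeq2 gave log2 fold changes of 2.04 for Col1a1, 1.85 for Col1a2, 2.04 for Col3a1, 1.79 for Col5a1, 1.28 for Col5a2 and 2.74 for Col11a1, all 6 called, with 1093 genes called in all. Limma-voom with quality weights gave 1.79, 1.56, 1.74, 1.56, 0.99, 0.73 and 1.69 for Col1a1, Col1a2, Col3a1, Col5a1, Col5a2, Col5a3 and Col11a1, all 7 called, with 5080 genes in all. Without a filter 146 genes were called, 1 of them one of the 7, Col11a1 at 2.71 (edgeR adjusted p = 0.0412; from 0.00325 to 0.319 over its alternatives). With library totals as the scaling 1 gene was called, and the median of all genes shifted by 0.17 on the log2 scale.

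Leaving out 1 library moved the genes called between 0 and 3269 and the calls among the 7 between 0 and 7. Log2 fold changes then ranged from 1.50 to 2.39 for Col1a1, 1.29 to 2.19 for Col1a2, 1.38 to 2.43 for Col3a1, 1.30 to 2.10 for Col5a1, 0.74 to 1.61 for Col5a2, 0.48 to 0.91 for Col5a3 and 2.38 to 3.06 for Col11a1. The ratio of Col3a1 to Col1a1 turned to 0.0238 without severe library 13 and was -0.14 at its lowest. Without mitochondrial genes the mild share of counts was 0.0605%. With total exon length, type V made up 10.05% in severe and 14.05% in mild kidneys and type III 37.4% in severe and 35.6% in mild kidneys. Leaving out severe libraries from the count of genes above every mild library was an alternative chosen after seeing the data. No paired analysis was possible because the groups share no replicate number. The cause of these changes was not tested.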

Other observations

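Some collagen-handling genes were not higher on average in severe kidneys; they were chosen after their values were seen. The level of the collagenase gene Mmp13 was 4.07, 2.36 and 2.46 CPM in severe libraries 13, 14 and 15, against 3.17, 4.19 and 3.09 CPM in mild libraries 7, 8 and 9. P4hb, a subunit of the prolyl 4-hydroxylase that stabilises the triple helix, averaged 611 ± 75.6 CPM in severe and 699 ± 10.8 CPM in mild kidneys, every severe library being below every mild one, and its partner P4ha1 averaged 63.7 ± 3.49 CPM in severe and 71.9 ± 5.98 CPM in mild kidneys (SD, n = 3 each; edgeR adjusted p = 0.404 for P4hb and 0.254 for P4ha1). Lower without overlap between the groups were 16.1% of all genes tested.

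Summed CPM of the 7 genes divided by the summed CPM of the 6 fibroblast and pericyte markers was 4.98, 7.72 and 5.42 in severe libraries 13, 14 and 15, against 4.03, 4.66 and 5.14 in mild libraries 7, 8 and 9. Severe library 13 lay within the mild range.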
